A study of Mus musculus with 6 samples.

Results

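The SLC25 carriers are the proteins that move metabolites, nucleotides, cofactors and metal ions across the inner mitochondrial membrane, with a few members in peroxisomes or in the outer mitochondrial membrane. Each is a single chain built from 3 similar repeats. In muscle they bring ADP and phosphate in for ATP synthesis, carry ATP out to the myofibrils, and pass reducing equivalents, fatty acyl groups and amino acid carbon between cytosol and matrix. The genes were taken as every probe set whose annotation gives exactly 1 gene symbol, and that symbol begins with Slc25a and a number. This gave 93 probe sets for 44 genes, of 18193 genes on the array with such a probe set. The probe set with the highest mean over the 6 samples stood for its gene. After a filter on dim probe sets (mean signal under 15 array units) 38 of the 44 were tested, and the other 6 are listed at their values further on. The uncoupling proteins Ucp1 to Ucp3 belong to the same family but carry another symbol, so they were not members.

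RNA came from all hind limb skeletal muscle of 6 mice aged 4 weeks, each isolated separately: 3 were wild type and 3 were laminin alpha 2 chain deficient, lacking part of the laminin that the muscle basement membrane is built on. Each mouse was hybridised to 1 Affymetrix array. Allele, strain and sex are not named in the labels, and no treatment is. The comparison asks how muscle without this laminin chain differs from wild type muscle. Values are linear signal in array units, given per mouse in the order of replicates 1, 2 and 3, and means carry the SD (n = 3). A log2 fold change is the mean of log2(signal + 16) in the deficient mice minus that in the wild type mice, so dim genes show too small a change. The number of arrays limits the precision.

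Lama2, which encodes the missing chain, read 428.7, 415.6 and 326.2 in wild type mice but 82, 31.1 and 140.4 in deficient mice, with no overlap. All 8 muscle fibre markers were above the filter. Their summed signal was 96254 to 99696 in wild type and 69858 to 94847 in deficient mice, with a lower deficient mean for 7 of the 8 (all but Myh1). In whole muscle, fewer fibres and less RNA per fibre cannot be told apart. Summed macrophage markers ran from 2914 to 4153 in wild type and from 4122 to 11368 in deficient mice, with a higher deficient mean for 9 of 9. Hair follicle and epidermal markers summed to 2051 and 1103 in wild type replicates 1 and 2 and to 163 to 280 in the other 4 mice. Y-linked Eif2s3y was present in replicates 1 and 2 of both groups (415 to 574) and near background in both replicates 3 (9.1 and 10.7). Deficient replicate 1 also carried Xist (396). Actin control probes, a measure of RNA intactness, gave 5 prime to 3 prime ratios of 1.04 to 1.15 in wild type and 0.51 to 0.819 in deficient libraries, while those of Gapdh overlapped. The part of these differences in the results below was not tested, except where a value is given.

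Of the 38 carriers tested, Slc25a24 rose and Slc25a25 and Slc25a11 fell, and the other 35 did not pass (limma, Benjamini-Hochberg adjusted p under 0.05 over 13104 genes). That is 7.89% of the carriers, beside 2.69% of all genes called in either direction (1.25% higher and 1.44% lower). An unadjusted p under 0.05 was found for 8 of the 38, beside 18.9% of all genes. Wild type and deficient values were apart in 3 carriers that were higher and 8 that were lower, or 7.89% and 21.1%, beside 12.3% and 12.4% of all genes (24.7% in either direction). The median log2 fold change was -0.09 for the carriers and 0.02 for all genes tested, and 57.9% of carriers against 47.4% of all genes had a negative value. With each mouse left out in turn, between 1 and 5 carriers were called. Only Slc25a24 was called without wild type replicate 1, wild type replicate 2, deficient replicate 1 or deficient replicate 2. The count was 2 when wild type replicate 3 was left out and 5 when deficient replicate 3 was, and then 5.16% of all genes were called.

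**Figure D1:**
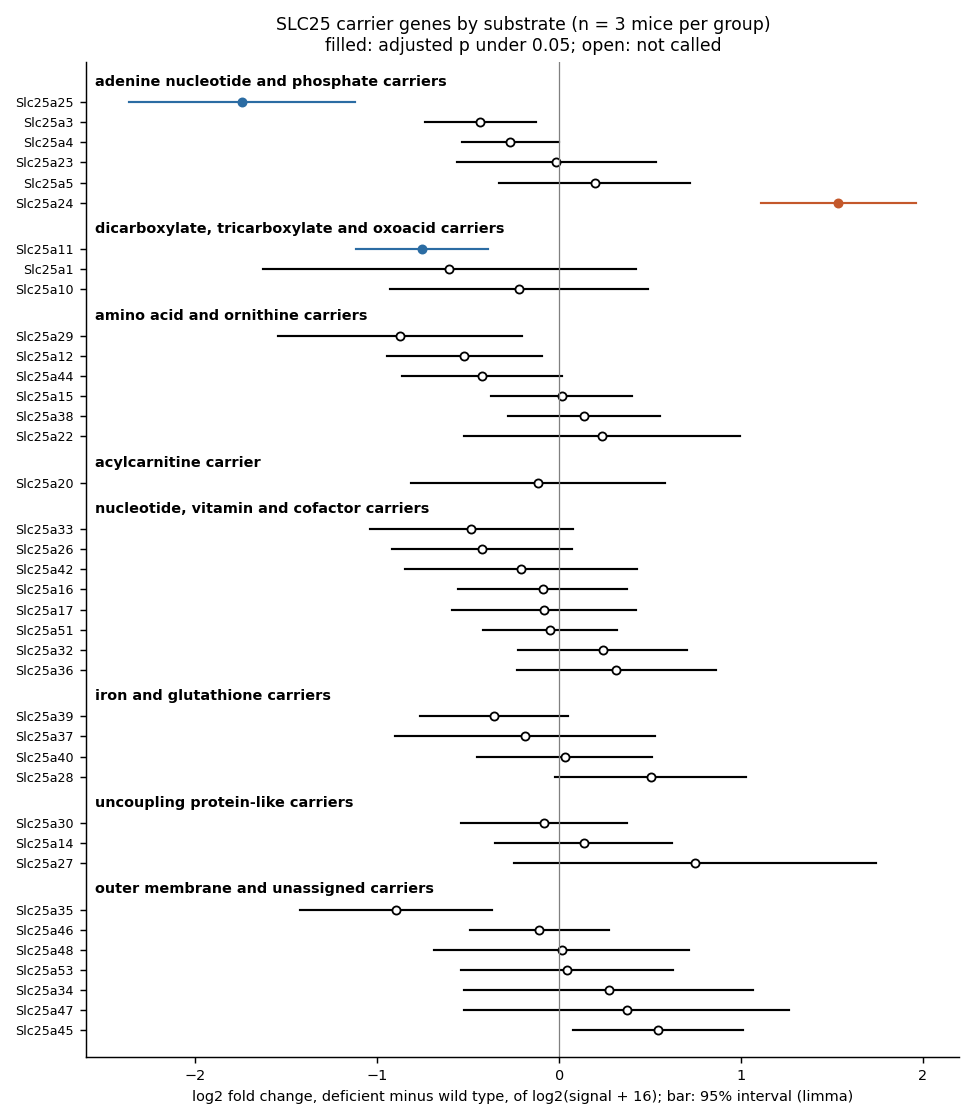
Log2 fold change (x axis, deficient minus wild type, log2(signal + 16)) of the 38 tested carriers with 95% intervals from limma, grouped by substrate; filled points passed at adjusted p under 0.05 and open points did not. Slc25a25 and Slc25a24, of the same substrate class, lie at opposite ends at -1.74 and 1.53.

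The 2 largest differences were in the ATP-Mg/phosphate carriers, which exchange adenine nucleotides for phosphate in response to cytosolic calcium and so set the size of the nucleotide pool in the matrix. Slc25a24 (Entrez 229731, chr3:109123149-109168409 in GRCm38.p6) read 148.6, 149.7 and 136.6 in wild type and 433.6, 544.3 and 385.5 in deficient mice. Every deficient value was far above the highest wild type value, with a narrow spread in wild type. The mean rose from 145 ± 7.27 to 454.5 ± 81.4, a log2 fold change of 1.53 (SE 0.191, adjusted p = 0.00584). Slc25a25 (Entrez 227731, chr2:32414487-32451470) read 321.8, 278.5 and 149.9 in wild type and 59.2, 49.9 and 72.6 in deficient mice. Its lowest wild type value, in replicate 3, was still above all deficient values. The mean fell from 250.1 ± 89.4 to 60.6 ± 11.4, a log2 fold change of -1.74 (SE 0.277, adjusted p = 0.0162).

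The ratio of Slc25a25 to Slc25a24 within an array puts both calls on 1 scale and is no further evidence for either. As a log2 difference it was 1.04, 0.83 and 0.12 in wild type and -2.58, -3.09 and -2.18 in deficient mice. The difference of -3.28 gave p = 0.1 in a two-sided exact permutation test over the 6 mice, the smallest p that 3 against 3 can give (0.25 adjusted over 5 carrier pairs). A second probe set of Slc25a25 pointed the same way without overlap, at 23.8, 30.5 and 13.9 against 12.9, 9.8 and 4.3. A second, dim probe set of Slc25a24 overlapped between the groups, at 21.7, 31.3 and 15.9 against 88.1, 19.1 and 35. When all probe sets of a gene were averaged, dim ones included, the log2 fold change of Slc25a24 was 1.05 (adjusted p = 0.0513), that of Slc25a25 was -0.90 (adjusted p = 0.0438) and the difference in their ratio was -1.95. Over all alternatives that kept at least 2 wild type mice the adjusted p of Slc25a24 ran from 0.000782 to 0.0513. The call of Slc25a25 was lost when wild type replicate 1 (adjusted p = 0.0793), wild type replicate 2 (0.0723), deficient replicate 1 (0.0525) or deficient replicate 2 (0.0772) was left out, and its adjusted p ran from 0.00384 to 0.0793 over the alternatives.

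Markers of other cells moved in these mice too. Slc25a24 was highest in deficient replicate 2 and the macrophage sum in deficient replicate 1. In deficient replicate 3 Slc25a24 stood at 385.5 with a macrophage sum of 4122, below the 4153 of wild type replicate 1. The single markers were split in that mouse. Mpeg1 (525.5), C1qa (368.3), Cd14 (113) and Cd163 (255.9) were above every wild type mouse. Mrc1 (298.6) was below every wild type mouse, and Adgre1, Csf1r, Cd68 and Lyz2 lay within the wild type range. The part of macrophage signal in the Slc25a24 values was not tested. Slc25a25 was lowest of the wild type mice in replicate 3, where Ucp1 was highest (1033, 357 and 1481 in the wild type mice and 43.8, 12.7 and 43.7 in the deficient mice). Summed brown adipocyte markers were 8220 to 10331 in wild type and 5650 to 7016 in deficient mice, with 3 of the 8 higher and 5 lower in deficient mean. Most of each sum was Cox8b alone (6996 to 7780 in wild type and 4858 to 6148 in deficient mice). Ucp1, Cidea, Otop1 and Cox8b were lower without overlap and Dio2 was higher without overlap, while Elovl3, Ppargc1a and Pparg overlapped. Without wild type replicates 1 and 2, those with hair follicle markers, the log2 fold change was 1.61 for Slc25a24 and -1.13 for Slc25a25, from 1 wild type mouse and so given as values only.

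The other ATP-Mg/phosphate carriers gave no call. Slc25a23 was level, at 38.8 ± 4.67 and 39.2 ± 14.1. Slc25a41 was under the filter, at 13.4, 9.3 and 21.7 in wild type and 1.3, 3.3 and 1.2 in deficient mice, and was not tested.

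The remaining call was Slc25a11 (Entrez 67863, chr11:70644019-70647531), the carrier that exchanges oxoglutarate for malate in the malate-aspartate shuttle. It read 1493, 1437 and 1378 in wild type and 972, 822 and 751 in deficient mice, with no overlap and a narrow spread in both groups. The mean fell from 1436 ± 57.8 to 848.5 ± 113, a log2 fold change of -0.76 (SE 0.162, adjusted p = 0.0427). This adjusted p lies close to the threshold. The call was lost when any 1 wild type mouse was left out (0.164, 0.169 and 0.0965 for replicates 1, 2 and 3), and on leaving out deficient replicate 1 (0.0525) or 2 (0.139). It was also lost with median centring (0.079), with no filter (0.0533), with the most variable probe set per gene (0.0668) and with no intensity trend (0.0936). With 1 mouse left out its log2 fold change ran from -0.86 to -0.67.

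**Figure D2:**
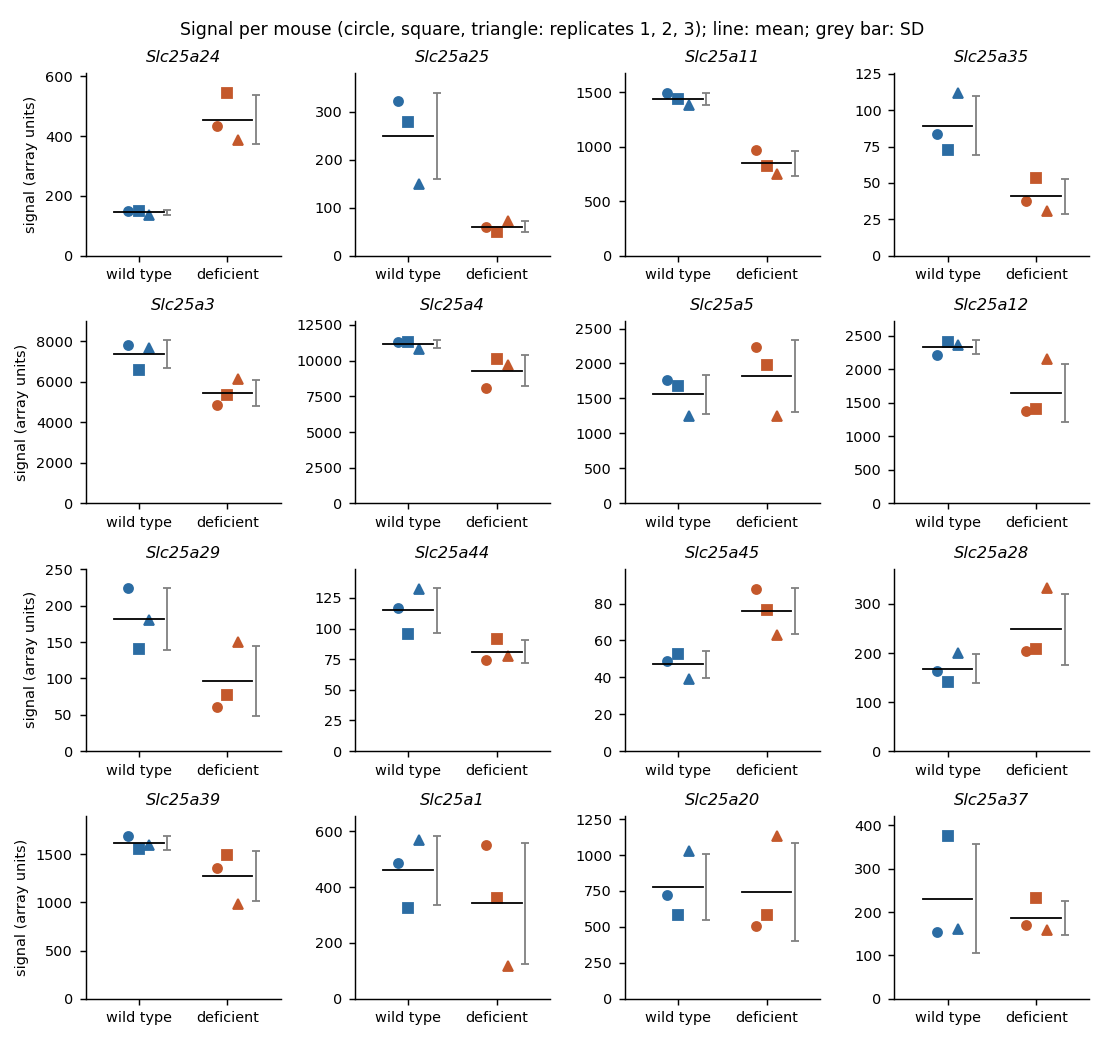
Signal (y axis, array units from 0) of 16 carriers in each mouse, wild type in blue and deficient in orange, with the mean as a line and the SD as a grey bar. The wild type and deficient points are apart for Slc25a24, Slc25a25, Slc25a11, Slc25a35, Slc25a3, Slc25a4, Slc25a12, Slc25a44, Slc25a45, Slc25a28 and Slc25a39.

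Promoter sequence of the 3 called genes is shown to see whether they share a known element. The 250 bases before an annotated start were read from RefSeq (GRCm38.p6), which held 43 promoters for 34 of the 44 genes. Both strands were searched for 6 motifs: the cAMP response element (TGACGTCA), the estrogen-related receptor element (TCAAGGTCA), the palindromic NRF1 element, the E-box (CACGTG), the CCAAT box (CCAAT) and the GC box (GGGCGG). Capitals below mark every match, and no 2 matches overlapped. Slc25a25 has 3 annotated starts, and the one shown was chosen for its cAMP response element. The windows shown for Slc25a25 and Slc25a11 lie inside the span of their gene.
Slc25a24, chr3:109122899-109123148, plus strand: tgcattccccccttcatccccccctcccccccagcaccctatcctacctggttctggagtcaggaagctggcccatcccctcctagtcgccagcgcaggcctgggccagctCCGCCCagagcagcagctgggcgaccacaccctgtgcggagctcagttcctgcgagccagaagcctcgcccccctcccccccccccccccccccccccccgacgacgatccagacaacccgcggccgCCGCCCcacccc
Slc25a25, chr2:32424067-32424316, minus strand: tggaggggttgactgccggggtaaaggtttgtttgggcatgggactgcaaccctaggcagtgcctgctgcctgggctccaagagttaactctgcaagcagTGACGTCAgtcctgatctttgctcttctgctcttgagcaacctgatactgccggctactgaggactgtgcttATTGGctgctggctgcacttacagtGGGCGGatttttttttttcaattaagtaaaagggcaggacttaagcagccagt
Slc25a11, chr11:70647040-70647289, minus strand: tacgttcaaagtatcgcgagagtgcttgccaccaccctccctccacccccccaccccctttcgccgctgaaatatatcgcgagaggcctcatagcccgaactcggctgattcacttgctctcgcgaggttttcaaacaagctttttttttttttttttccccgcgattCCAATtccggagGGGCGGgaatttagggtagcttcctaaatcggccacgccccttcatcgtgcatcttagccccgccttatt
The Slc25a25 window shown holds a cAMP response element beginning at position -150 from the start, a CCAAT box and a GC box. The windows of its other 2 starts hold no such element, with 2 CCAAT boxes in 1 and 3 CCAAT boxes and 1 GC box in the other. That of Slc25a11 holds a CCAAT box and a GC box, and that of Slc25a24 holds 2 GC boxes. The cAMP response element is in 1.55% of the 32851 RefSeq windows of this length, the CCAAT box in 33.8% and the GC box in 32.7%. The estrogen-related receptor and NRF1 elements are in 0.387% and 0.782% of all windows and in 0 of the 43 carrier windows. A match is a run of letters, not a bound site.

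Of the carriers that bring in phosphate and exchange ADP for ATP, Slc25a3, Slc25a4 and Slc25a5 were above the filter and none was called, with a negative fold change for Slc25a3 and Slc25a4 and a positive one for Slc25a5. Slc25a3, which imports the phosphate used by ATP synthase, read 7824, 6563 and 7670 in wild type and 4864, 5350 and 6142 in deficient mice. The groups did not overlap, and the log2 fold change was -0.43 with a 95% interval from -0.74 to -0.13 (adjusted p = 0.128). A second probe set of Slc25a3 with a signal near the filter overlapped and gave 0.15. Slc25a4, the ADP/ATP exchanger of heart and skeletal muscle, read 11330, 11274 and 10847 against 8088, 10099 and 9716. Its log2 fold change was -0.27 (SE 0.12, adjusted p = 0.266). All 4 of its probe sets were lower in every deficient mouse than in any wild type mouse, with mean log2 differences from -0.76 to -0.27. These probe sets read the same RNA samples and are not replicates.

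Slc25a5, the ADP/ATP exchanger of growing cells and many other tissues, gave 1762, 1677 and 1243 in wild type and 2234, 1975 and 1254 in deficient mice. The groups overlapped, with replicate 3, the mouse without Y-linked signal, lowest in each (log2 fold change 0.20, adjusted p = 0.704). Of its 8 probe sets 7 had a positive and 1 a negative difference. Proliferation markers also overlapped, at 865 to 1624 in wild type and 709 to 1777 in deficient mice. The log2 ratio of Slc25a4 to Slc25a5 was 2.84 ± 0.235 in wild type and 2.38 ± 0.546 in deficient mice, a difference of -0.46 (two-sided exact permutation p = 0.3, adjusted p = 0.375). That difference was -0.76 with the mean of all probe sets and -1.36 with the most variable one (exact permutation p = 0.1 in both), -0.20 without deficient replicate 1 and -0.74 without deficient replicate 3. Slc25a31, the exchanger of germ cells, was under the filter, at 0.7 to 11.6 over the 6 mice.

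**Figure D3:**
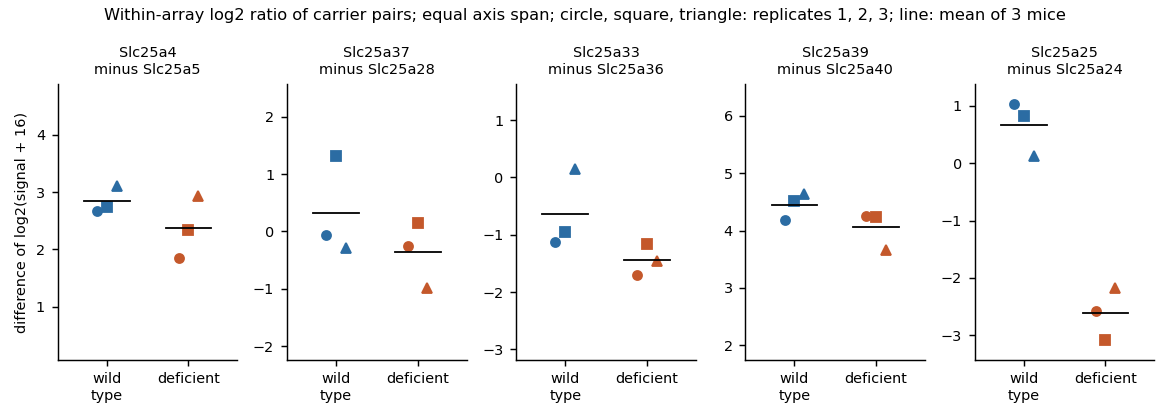
Difference in log2(signal + 16) between the members of 5 carrier pairs in each mouse (y axes of equal span); the level compares probe sets of unlike affinity and only its change between the groups can be read. The Slc25a25 to Slc25a24 ratio differs by -3.28 between the groups, without overlap. The Slc25a33 to Slc25a36 ratio differs by -0.80 and is only just apart (highest deficient value -1.156, lowest wild type value -1.121). With the most variable probe set of each gene this second difference is 0.12.

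Besides Slc25a11, the carriers of di- and tricarboxylates were Slc25a1, which exports citrate for fatty acid synthesis, and Slc25a10, which exchanges malate or succinate for phosphate. Slc25a1 read 486, 324 and 569 in wild type and 550, 360 and 118 in deficient mice. The groups overlapped, and deficient replicate 3 stood below all other mice (log2 fold change -0.61, 95% interval -1.63 to 0.42, adjusted p = 0.512). Acly, the enzyme that splits the exported citrate, was lowest in the same mouse, at 3802, 1793 and 3568 against 2387, 1628 and 190 (adjusted p = 0.28). White adipocyte markers, 6 of 8 measured, summed to 10767 in that mouse, the lowest of the 6 mice, and to 11400 to 15956 in the others. Of the single markers only Adipoq was lowest in that mouse (1480.5, and 2924.7 to 4154.8 in the others). Fabp4, Retn and Cidec were lowest in wild type replicate 2, and Lep and Pck1 in deficient replicate 1. Slc25a10 was also lowest in deficient replicate 3, at 82.4 (range 134 to 224 in the other mice).

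Among amino acid carriers, none of the 6 tested was called and 3 had a negative fold change. Slc25a12, the calcium-regulated aspartate/glutamate exchanger of muscle and the other carrier of the malate-aspartate shuttle, read 2208, 2410 and 2356 in wild type and 1382, 1411 and 2148 in deficient mice. Deficient replicate 3 lay just below the wild type range and the other deficient mice far below it (log2 fold change -0.52, adjusted p = 0.176, and 0.022 without deficient replicate 3). A second probe set was lower without overlap, at 234, 256 and 336 against 145, 104 and 147, and another near the filter overlapped. Its liver paralogue Slc25a13 was under the filter in all mice (1.8 to 6). Slc25a29, a carrier of basic amino acids, read 224, 139.9 and 180.5 against 60.6, 77.5 and 150.8 (log2 fold change -0.87, adjusted p = 0.154, and 0.0219 without deficient replicate 3). The groups overlapped in this probe set, and all 5 of its probe sets had a negative difference. Slc25a44, which carries branched-chain amino acids, read 116.5, 95.8 and 132.1 against 74.3, 91.7 and 77.5 and did not overlap (log2 fold change -0.42, adjusted p = 0.28).

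The remaining amino acid carriers overlapped between the groups. By its brightest probe set the ornithine carrier Slc25a15 was at 197 ± 16 and 199 ± 7.49, with a 95% interval from -0.38 to 0.40 on the log2 scale, while its dim second probe set gave 29.3 ± 12.7 and 8.43 ± 10.4, overlapping. Slc25a38, which supplies glycine for haem synthesis, was at 74.8 ± 8.16 and 83.7 ± 5.84, and the glutamate carrier Slc25a22 at 86.4 ± 34.4 and 104.5 ± 44.1, with an interval reaching from -0.53 to 0.99. Slc25a2 and Slc25a18 were under the filter, at 0.7 to 26.2 and 1.2 to 19.4 over the 6 mice.

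Slc25a20, the carnitine/acylcarnitine exchanger that feeds long-chain acyl groups to oxidation, differed between its probe sets. The brightest read 719, 584 and 1031 in wild type and 507, 585 and 1134 in deficient mice, overlapping (log2 fold change -0.12, adjusted p = 0.88). The other read 398, 429 and 535 against 280, 209 and 362 and did not overlap, with a mean log2 difference of -0.67. Both had the highest value of each group in replicate 3.

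Carriers of nucleotides, vitamins and cofactors gave 0 calls of 8, 6 of them with a negative fold change and a median of -0.09. By limma 0 of these had an unadjusted p under 0.05. The pyrimidine nucleotide carrier Slc25a33 read 239, 203 and 327 in wild type and 127, 194 and 217 in deficient mice (log2 fold change -0.48, adjusted p = 0.331). Its paralogue Slc25a36 read 539, 405 and 295 against 448, 453 and 626 (0.31, adjusted p = 0.527), but its other 2 probe sets had negative differences. The log2 ratio of the pair was -0.64 ± 0.683 and -1.44 ± 0.272, a difference of -0.80 (two-sided exact permutation p = 0.1, the smallest possible, and 0.25 adjusted). This difference was 0.12 with the most variable probe set of each gene, -0.28 with the mean of all and -0.41 without wild type replicate 3. The S-adenosylmethionine carrier Slc25a26 had the next lowest value of the group at -0.43 (adjusted p = 0.332), and its second probe set was lower without overlap. The NAD carrier Slc25a51 stood at 561 ± 39 and 541 ± 34.3, with an interval from -0.42 to 0.32. The coenzyme A carriers Slc25a42 and Slc25a16, the peroxisomal Slc25a17 and the folate or FAD carrier Slc25a32 lay between -0.21 and 0.24.

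The 4 iron and glutathione carriers gave no call, with 2 positive and 2 negative fold changes. Slc25a28, the mitoferrin of tissues outside the red cell lineage, read 162.5, 141 and 199.4 in wild type and 204.1, 207.6 and 332.4 in deficient mice, just apart (log2 fold change 0.50, adjusted p = 0.286). Slc25a37, the mitoferrin of erythroid cells, read 154.5, 376.1 and 161.3 against 169.6, 231.5 and 159, with the highest value of each group in replicate 2 (adjusted p = 0.804). Erythroid markers were highest in the same mice, at a sum of 974 and 689 against 154 to 222 in the other 4. Of the 7 markers, 4 were measured and only 2 were above the filter by mean signal, Alas2 and Slc4a1. Hba-a1 was under the filter in all mice. Without wild type replicate 2 the log2 fold change of Slc25a37 was 0.20 in place of -0.19. Slc25a39, which imports glutathione, read 1692, 1553 and 1598 against 1353, 1487 and 982 (log2 fold change -0.36, adjusted p = 0.327), and all 4 of its probe sets had a negative difference. Its paralogue Slc25a40 read 77.7, 52.9 and 48.9 against 55.4, 63.3 and 62.7, overlapping (log2 fold change 0.03, adjusted p = 0.961). The log2 ratios of the mitoferrin pair and of the glutathione pair differed by -0.69 and -0.39 (exact permutation p = 0.5 and 0.3, adjusted 0.5 and 0.375). The first was -0.19 if wild type replicate 2 and -0.37 if deficient replicate 3 was left out, and the second -0.21 with the mean of all probe sets and -0.19 without deficient replicate 3.

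Of the carriers named for likeness to uncoupling proteins, Slc25a14 and Slc25a30 were near equal (0.13 and -0.09 on the log2 scale). Slc25a27 read 14.1, 28.4 and 53.4 against 28.7, 50 and 132.5, overlapping (log2 fold change 0.75, adjusted p = 0.401), while its second probe set was lower without overlap, at a mean log2 difference of -0.91. Slc25a30 had 3 probe sets above the filter, 1 lower without overlap, 1 higher without overlap and 1 overlapping.

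In the last group, outer membrane Slc25a46 and carriers with no substrate assigned here, 0 of 7 were called. Slc25a35 had the smallest adjusted p of all carriers not called (0.0786). It read 83.6, 72.4 and 111.9 in wild type and 37.7, 53.7 and 30.8 in deficient mice, apart in every mouse (log2 fold change -0.89, SE 0.236). With Y-linked signal (Eif2s3y present or not) taken as a block its adjusted p was 0.0451. Slc25a45 read 49.1, 52.9 and 38.9 against 88.1, 76.4 and 63.1, higher in every deficient mouse (log2 fold change 0.54, adjusted p = 0.195). Slc25a46, which shapes mitochondrial membranes, was steady at 776 ± 67.2 and 720.4 ± 85.6 (95% interval -0.49 to 0.28). Slc25a34, Slc25a47, Slc25a48 and Slc25a53 overlapped, with fold changes from 0.01 to 0.37. Slc25a54 was under the filter, at 1 to 18.6 over all mice.

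**Figure D4:**
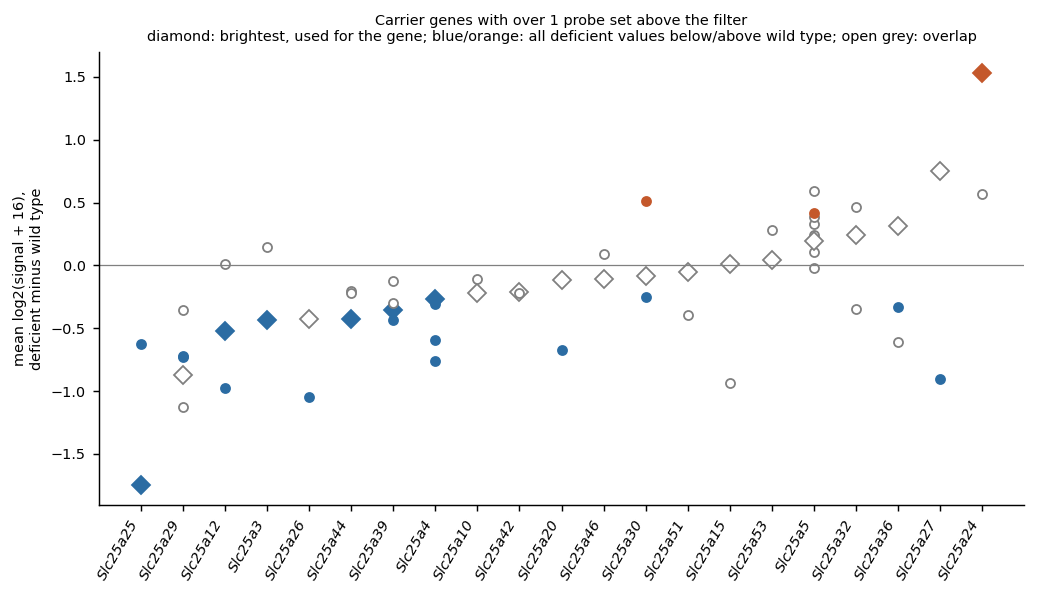
Mean log2(signal + 16) difference, deficient minus wild type, of every probe set above the filter for the 21 carriers with more than 1; diamonds mark the brightest, filled points have groups that do not overlap. All 4 Slc25a4 probe sets are filled and negative, whereas those of Slc25a27, Slc25a30 and Slc25a36 fall on both sides of 0.

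Of the 78 carrier probe sets above the filter, 49 had a negative mean log2 difference, beside 48.7% of all 23073 probe sets above the filter. The groups were apart in 21 that were lower and 5 that were higher, beside 11.9% and 10.7% of all. Probe sets of 1 gene share its RNA and are not independent. In 12 of the 21 genes with more than 1 such probe set, all had the same sign. For the 35 carriers without a call the 95% interval lay within a 2-fold change either way in 26, and within 1.5-fold in 9. The others cannot be bounded so tightly with 3 mice a group. Replicate 3 was the highest or the lowest of its group in 30 of 38 carriers among deficient mice (25 for replicate 1 and 21 for replicate 2) and in 29 of 38 among wild type mice (23 and 24). Every carrier has both a highest and a lowest mouse in each group, and such counts were not made over all genes.

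The carriers were set beside other mitochondrial genes by counts and medians, with no test of the difference. Of 79 respiratory chain and ATP synthase genes, 0 rose and 9 fell, 96.2% had a negative fold change and the median was -0.38. Of 76 mitochondrial ribosomal protein genes, 0 rose and 4 fell, 96.1% were negative and the median was -0.43. The carriers, with 57.9% negative and a median of -0.09, lay nearer to the value over all genes. The sets were not matched for signal, and dim genes show too small a change. Of the 5 brightest carriers, Slc25a4, Slc25a3, Slc25a12 and Slc25a39 had log2 fold changes of -0.27, -0.43, -0.52 and -0.36, and Slc25a5 had 0.20.

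**Figure D5:**
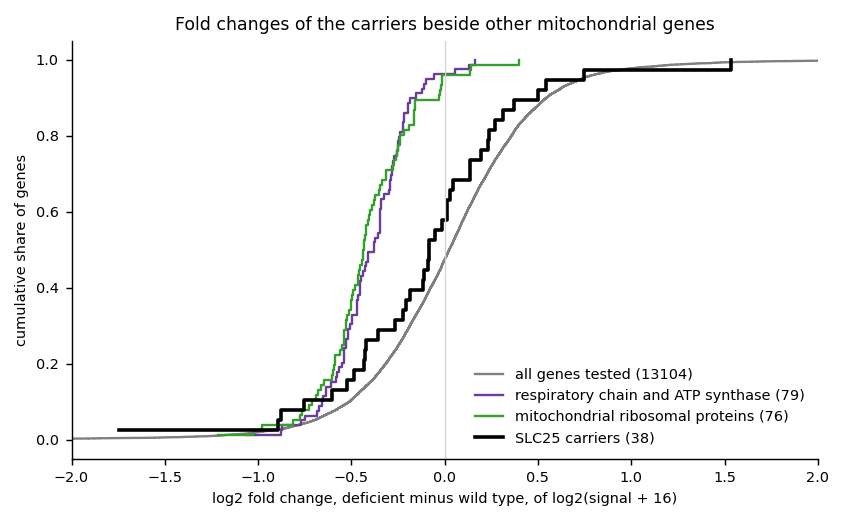
Cumulative share of genes (y axis) against log2 fold change (x axis, cut at -2 and 2) for the 38 carriers, 79 respiratory chain and ATP synthase genes, 76 mitochondrial ribosomal protein genes and all 13104 genes. The medians are -0.09 for the carriers, -0.38 and -0.43 for the other mitochondrial sets and 0.02 for all genes.

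Genes that work with the carriers included 4 that fell and 0 that rose of 15 tested, with a median of -0.45, beside 1.44% lower, 1.25% higher and a median of 0.02 over all genes. Got1, the cytosolic aspartate aminotransferase of the malate-aspartate shuttle, fell from 2755.6, 2771.3 and 2678.3 to 1506.4, 1111 and 1579.3 (adjusted p = 0.0204). Gpd1 and Gpd2, the cytosolic and mitochondrial enzymes of the glycerol phosphate shuttle, had log2 fold changes of -1.33 and -1.49 (adjusted p = 0.00954 and 0.0162), both calls. Ckmt2, the mitochondrial creatine kinase that takes up ATP exported by the ADP/ATP carriers, fell from 7221 ± 301 to 4441 ± 525 (adjusted p = 0.0262). Of the other enzymes of the malate-aspartate shuttle, Mdh1 and Mdh2 did not overlap between the groups and were lower (adjusted p = 0.111 and 0.186), and Got2 overlapped (0.416). Of 24 other mitochondrial channels and transporters tested, 1 fell, Ucp1, and 0 rose. The 3 with the next smallest p were the pyruvate carrier subunit Mpc1 (-0.69, adjusted p = 0.0626), the sodium/calcium exchanger Slc8b1 (0.75, 0.0724) and the porin Vdac3 (-0.51, 0.0898), each with groups apart. Of 12 genes of the import machinery that inserts carriers into the inner membrane, 0 were called by limma and 1 had an unadjusted p under 0.05, Timm8b (-0.86, adjusted p = 0.0901).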

How the data were processed

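The authors deposited an intensity for each of 45101 probe sets on each array, on a linear scale. Per the labels' protocols, total RNA was extracted with TRIzol, cleaned on RNeasy columns and turned into biotinylated cRNA. The intensity was computed with an algorithm not given in the sources used here, and each array's trimmed mean (2% cut at either end) was 100, a common scale. No further normalization was applied before taking log2(signal + 16). Of the probe sets, 34945 had 1 gene symbol, 932 several (1 of these with a carrier symbol, left out), 9160 none and 64 were controls. All 44 carriers matched a RefSeq gene of GRCm38.p6 by Entrez identifier. The filter dropped probe sets whose mean lay under the 40th percentile (15), and the brightest of those that remained stood for a gene. Groups, taken from the sample titles, were set against each other by limma 3.58.1 under R 4.3.3 (two-sided, lmFit, then eBayes with the trend option, all 6 samples, no block), and p-values were adjusted over 13104 genes. Every adjusted p of a gene is from limma. The limma step was tested on data simulated as independent normal noise from the fitted model with known shifts. The filter, the choice of probe set, the permutation test and the motif search were not tested in this way.

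The carriers, substrate groups, pathway lists and markers were chosen with earlier results of these data known. Values in every mouse are given for called carriers, members of the carrier pairs, the 4 largest rises and falls and the 5 brightest. Other carriers given per mouse, second probe sets and single markers were chosen after their values were seen. Of the pathway lists, called genes and up to 4 with the smallest p are named, and Acly, Got2, Mdh1 and Mdh2 were added as partners of named carriers. Summed markers for fibroblasts (14573 to 23882 in wild type and 19261 to 24510 in deficient mice), endothelium (943 to 1595 and 865 to 1245) and Schwann cells (2148 to 3688 and 3395 to 4419) overlapped between the groups. A higher deficient mean was found for 4 of 5 fibroblast, 1 of 5 endothelial and 2 of 2 measured Schwann cell markers. Fibroblast Pdgfra was higher without overlap (498.1, 487.9 and 465.8 against 783.1, 572.4 and 908.9), while Col1a1, Col3a1, Dcn and Lum overlapped. The pair Slc25a12 and Slc25a13 was dropped, since Slc25a13 was under the filter.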

Additional observations from a re-analysis of the deposited data

How the results depend on the processing

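Alternatives were median centring, quantile normalization, pseudocounts of 1 and 64, no filter and a filter at the 60th percentile, the mean of all probe sets or the most variable one, no intensity trend, a robust prior, the replicate block, a block for Y-linked transcripts (Eif2s3y above 100), each mouse left out and, chosen after seeing the data, filter and probe set by mean log2 value. The 3 carriers called became 1 to 5 with a mouse left out and 2 to 4 under the others. The median of -0.09 ran from -0.17 to -0.03, each time moving by less than the spread between mice (SD 0.103). That spread is larger than the median itself, so this comparison cannot show that the shift is stable. Negative fold changes were found in 22 of the 38 carriers, in 19 without deficient replicate 1 and in 26 with median centring. Signs turned in carriers that were not called: Slc25a40 (-0.014 with median centring, -0.008 with quantile normalization, and -0.073 to 0.192 with a mouse left out, negative without wild type replicate 2, at -0.03, and 3), Slc25a37 (-0.396 to 0.204 with a mouse left out, positive without wild type replicate 2, and 0.18 without wild type replicates 1 and 2), Slc25a36 (-0.21 with the mean and -0.61 with the most variable probe set), Slc25a27 (-0.066 with the mean), Slc25a3 (0.15 with the most variable probe set) and the Slc25a33 to Slc25a36 ratio (0.12 with the most variable). The cause was not tested beyond the change of probe set or mouse itself. Signs were followed only in the 17 carriers called, in a pair, among the 4 largest rises or falls, or the 5 brightest. The other tested carriers were not followed in this way, so the list is not complete for them.

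The labels tie same-numbered mice of the groups by nothing but the number, although both replicates 3 lacked Y-linked signal and replicates 1 and 2 carried it. Their deviations from the group means correlated at 0.15, 0.07 and 0.30. With the replicate block 3 carriers were called, as without it, while the count over all genes went from 353 to 855. It was 1144 with the Y-linked block and 64, 70, 221, 145, 81 and 676 with each mouse left out, wild type replicates 1 to 3 first. Signals near the filter are the least precise.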

Other observations

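In the 250 bases before the 43 RefSeq starts of carrier genes, the E-box CACGTG was in 18.6% and the GC box GGGCGG in 74.4%, beside 6.02% and 32.7% of all 32851 windows. The CCAAT box was in 46.5%. Besides Slc25a25, the cAMP response element TGACGTCA was in a window of Slc25a36. These are counts of letters, with no test.

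The 3 X-linked carriers tested, Slc25a5, Slc25a14 and Slc25a53, all overlapped between the groups, with log2 fold changes of 0.04 to 0.20.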
